A study of Mus musculus with 4 samples.

Results

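The CpG-dense windows far from genes were stretches of 500 bp that held many measured CpG sites but lay more than 5 kb from any RefSeq transcript on mm10, curated or predicted. They were chosen on the 19 autosomes by location and by the number of common cytosines, meaning CpG cytosines with a coverage of 10 or more in each of the 4 livers, and not by methylation. Of 19118 autosomal windows with 16 or more common cytosines, 402 met the distance rule, while 16499 lay within 1000 bp of a TSS, 1940 lay in gene bodies and 277 lay outside transcripts but within 5 kb of one. The 402 windows held 10530 common cytosines at 7834 CpG dinucleotides.

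Enhanced reduced representation bisulfite sequencing (ERRBS) reads restriction fragments after bisulfite treatment, so that a methylated or hydroxymethylated cytosine is read as C and an unmethylated one as T. The samples were whole livers of male mice on a normal diet, taken at 6 to 8 weeks of age, and no mouse was treated. Mixed-1 and Mixed-2 were on an undefined background that includes C57BL/6J, whereas B6-1 and B6-2 were C57BL/6 (Black-6) mice. The strains were housed at different institutions, so differences of strain cannot be told apart from those of housing. Each mouse was 1 sample. The labels name MspI as the enzyme, and the study's description of the assay adds TaqαI. The ERRBS files measured no expression, and of the start regions of Alb, Apoa1, Ttr, Hnf4a and Serpina1a only that of Hnf4a held common cytosines, so the tissue could not be checked against liver markers. Coverage summed over all CpG cytosines of a mouse, in which a read counts once at each cytosine it covers, ranged from 60654199 to 99215153 and was lower in both Mixed mice.

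In mammals, most CpG sites carry methylation, and clusters of CpG sites that stay unmethylated, the CpG islands, mark most promoters. Islands away from annotated promoters, often called orphan islands, can be starts of unannotated transcripts or enhancers of developmental genes. Other CpG-rich stretches away from genes come from young transposable elements or from retrotransposed gene copies, which are usually methylated, and intermediate levels are typical of imprinted regions, where the alleles differ, and of regions that differ between cells.

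One window of each methylation class is shown first, to set the spacing of the measured CpG sites beside their levels. Each sequence is 300 bases of the reference (RefSeq GRCm38, plus strand, 5′ to 3′), and capitals mark the CpG sites measured in all 4 livers. A hypomethylated window (level under 20%) at chr15:85670605-85670904 held 76 common cytosines, all hypomethylated:

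Hypomethylated: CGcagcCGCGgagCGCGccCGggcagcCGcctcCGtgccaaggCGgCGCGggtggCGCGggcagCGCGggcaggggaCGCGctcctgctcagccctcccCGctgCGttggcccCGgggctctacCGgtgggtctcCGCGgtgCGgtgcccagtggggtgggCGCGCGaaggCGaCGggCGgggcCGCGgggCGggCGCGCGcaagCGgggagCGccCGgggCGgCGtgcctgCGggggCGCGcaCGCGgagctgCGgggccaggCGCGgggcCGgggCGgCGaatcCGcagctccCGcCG

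An intermediate window (20% to 80%) at chr12:19704000-19704299 held 31 common cytosines, of which 28 were intermediate:

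Intermediate: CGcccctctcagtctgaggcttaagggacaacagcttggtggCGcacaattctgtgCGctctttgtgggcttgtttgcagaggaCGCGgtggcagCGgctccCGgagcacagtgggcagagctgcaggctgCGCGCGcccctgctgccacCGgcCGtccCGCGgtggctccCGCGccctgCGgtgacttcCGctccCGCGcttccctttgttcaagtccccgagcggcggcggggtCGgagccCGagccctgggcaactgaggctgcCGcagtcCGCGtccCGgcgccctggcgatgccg

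A hypermethylated window (over 80%) at chr8:47646664-47646963 held 36 common cytosines, of which 30 were hypermethylated:

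Hypermethylated: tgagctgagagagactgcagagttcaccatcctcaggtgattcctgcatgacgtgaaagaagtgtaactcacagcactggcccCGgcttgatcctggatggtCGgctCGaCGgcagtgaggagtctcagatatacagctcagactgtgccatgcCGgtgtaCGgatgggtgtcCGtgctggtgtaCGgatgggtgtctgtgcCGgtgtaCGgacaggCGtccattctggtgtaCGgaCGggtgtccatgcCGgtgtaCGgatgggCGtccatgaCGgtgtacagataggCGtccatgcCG

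The level of each sequence was the mean percent of C over its common cytosines. The hypomethylated sequence had levels of 0.0921% and 0.108% in Mixed-1 and Mixed-2 and of 0.0648% and 0.133% in B6-1 and B6-2. The intermediate sequence had 46.9%, 52.8%, 43.2% and 47.6% in the same order. The hypermethylated sequence had 88.2%, 87.4%, 87.4% and 87.1%. No mouse departed from its class in any of these sequences. The measured CpG sites, each of which can be read on 1 strand or on both, numbered 55 in the hypomethylated sequence, 26 in the intermediate one and 19 in the hypermethylated one.

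The far windows were mostly unmethylated, and most others were strongly methylated. By the mean of the 4 mice, 268 windows were hypomethylated, 58 were intermediate and 76 were hypermethylated. The share of hypomethylated windows was 66.7% ± 0.425 (SD, n = 4 mice), that of intermediate windows 14.0% ± 0.513, and that of hypermethylated windows 19.3% ± 0.518. The class was the same in all 4 mice for 373 windows (92.8%). No window was hypomethylated in one mouse and hypermethylated in another. Of the hypomethylated windows, 223 had a mean under 5% and 119 a mean under 1%, and in 219 of them every common cytosine was below 20%. Hypermethylated windows were less uniform, since only 28 of 76 had every cytosine above 80%.

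**Figure D1:**
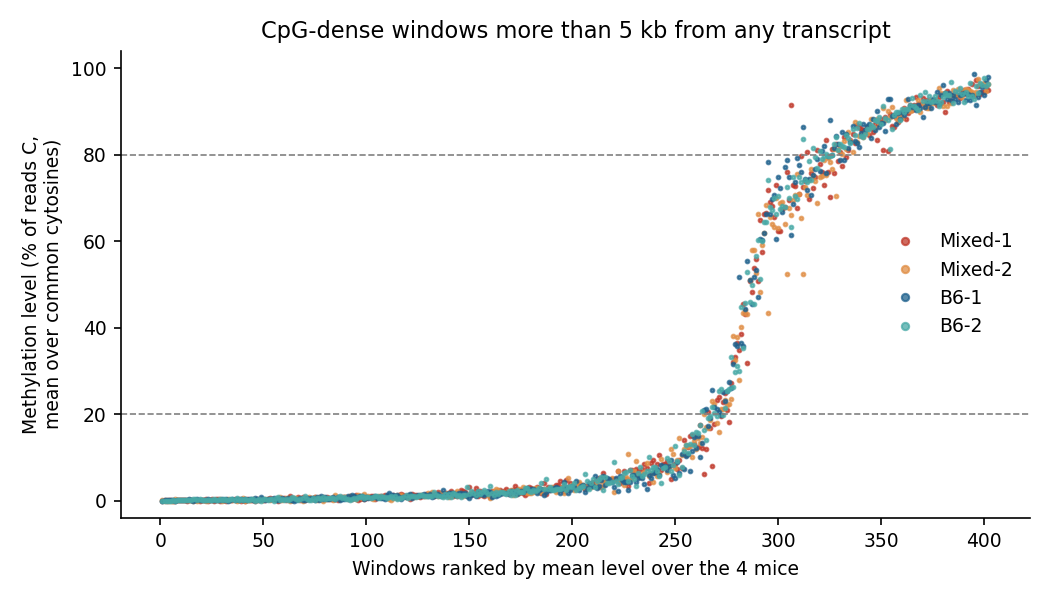
Methylation level (percent of reads that were C, mean over common cytosines) of each of the 402 windows in each of the 4 mice, ranked by mean level, with dashed lines at 20% and 80%. The curve is flat near 0 for most windows, and the points of the 4 mice lie widest apart between the lines.

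The far windows were more methylated than promoter windows and less methylated than CpG-poor windows at the same distance, in all 4 mice. Their mean levels were 27.0% and 26.8% in Mixed-1 and Mixed-2, and 27.2% and 27.3% in B6-1 and B6-2, which gave 27.1% ± 0.210 (SD, n = 4), while their median was 3.21%. CpG-dense promoter windows averaged 1.67%, and the far windows were 25.4 points ± 0.228 higher, with the same direction in 4 of 4 mice. CpG-dense gene-body windows averaged 31.1%, and the far windows were lower by 3.97 points ± 0.303 on average, again in all 4 mice. CpG-dense windows within 5 kb of a transcript averaged 9.04%, 18.1 points ± 0.297 below the far windows. Windows equally far from genes but with fewer than 16 common cytosines averaged 77.9%, and there the difference was -50.8 points ± 0.750. The two-sided exact sign test over 4 mice gave p = 0.125 for each contrast, which is the smallest p it can give. The size of the contrasts depended on which windows entered. The contrast with promoters was 7.58 points with 24 or more cytosines and 15.4 points without windows rich in repeats. The contrast with gene bodies was -0.0921 points at a minimum distance of 10 kb, where the mice were split in direction (exact sign test p = 1), and -13.6 points without windows rich in repeats.

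**Figure D2:**
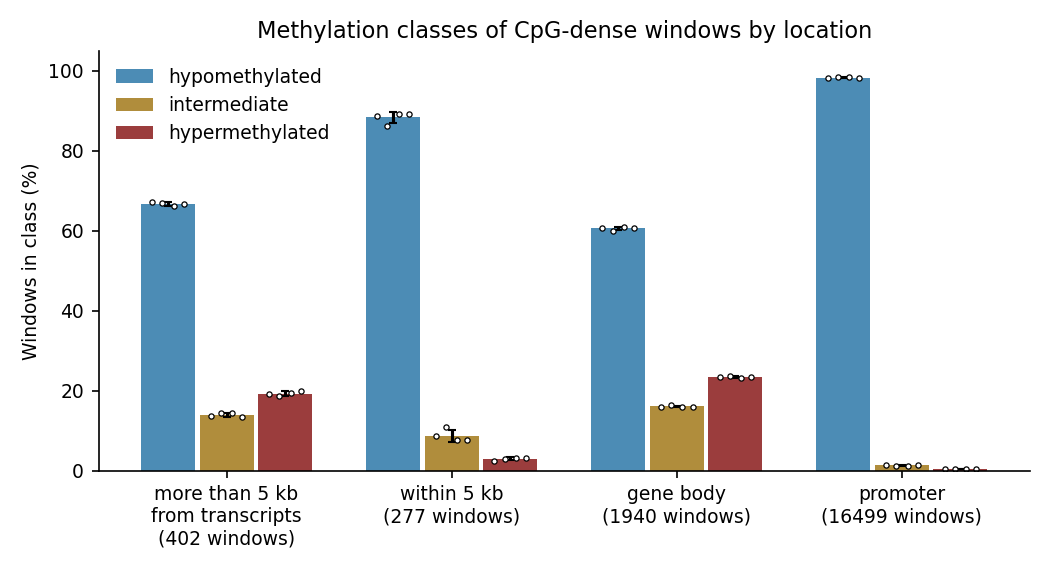
Share of CpG-dense windows in each methylation class by location, with bars for the mean over 4 mice, error bars for the SD and points for the mice. The far windows (66.7% hypomethylated) stand close to gene-body windows and apart from promoter windows, of which 98.3% were hypomethylated.

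Methylation fell steeply with the number of measured cytosines in a window. Among windows far from genes, the mean level was 79.4% ± 0.692 with 1 to 3 common cytosines and 66.1% ± 0.278 with 12 to 15. Within the dense windows it was 40.3% ± 0.273 with 16 to 23 cytosines, 12.1% ± 0.361 with 24 to 31 and 5.39% ± 0.105 with 32 to 101. Just outside the limit of the rule, the 83 windows with 15 cytosines averaged 60.8%, and just inside it the 54 windows with 16 averaged 52.7%, so the limit fell on a slope and not at a step. At the limit of distance, the 34 CpG-dense windows in the last 1 kb before it averaged 11.9% and the 22 in the first 1 kb beyond it averaged 17.6%. Over the 402 windows, the level had a Spearman rho of -0.46 with the number of cytosines, a description over windows of the same livers.

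**Figure D3:**
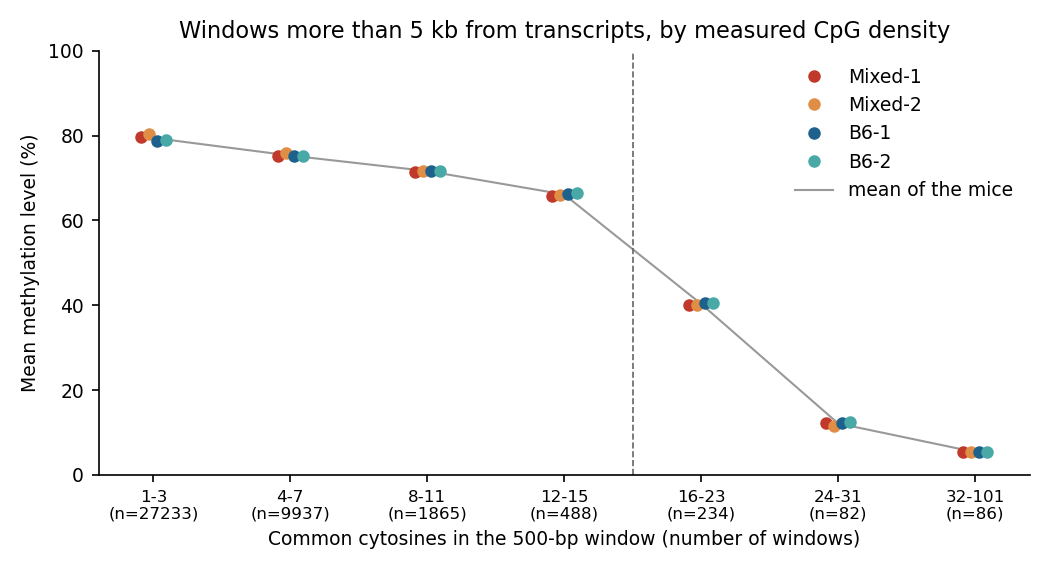
Mean methylation level of autosomal windows more than 5 kb from transcripts, by the number of common cytosines in the window, with a point for each mouse and the number of windows under each group. The dashed line marks the minimum of 16 cytosines, and the means fall from 79.4% to 5.39% across the groups.

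The hypomethylated windows with the most cytosines were almost free of methylation. The window at chr15:68362500-68362999 held 101 common cytosines, the highest number of all, and lay 21211 bp from Mir30d, which encodes a microRNA of the miR-30 family. Mixed-1 and Mixed-2 had 0.131% and 0.0637% there, and B6-1 and B6-2 had 0.0491% and 0.0903%. GENCODE, a second annotation, placed the start of the long noncoding RNA Gm20732 177 bp away. The adjoining windows chr15:85670500-85670999 (100 cytosines) and chr15:85671000-85671499 (82 cytosines) lay 29976 and 30476 bp from D130051D11Rik and inside the GENCODE long noncoding RNA Lncppara. Their means were 0.103% and 0.0973%. All these windows stayed below 0.3% in each mouse.

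Far windows that lay next to each other were mostly hypomethylated, but most hypomethylated windows were single. With a gap of at most 1 window allowed, the 402 windows formed 348 runs, of which 305 were single windows and 43 were longer. The 97 windows in longer runs averaged 5.83% ± 0.318 and 90 of them were hypomethylated, against 33.9% ± 0.257 and 178 of 305 for single windows. The longest run, chr10:7390500-7393999, held 6 windows and 153 cytosines, 50874 bp from Ulbp1, which encodes a ligand of the natural killer cell receptor NKG2D, and its mean was 1.68%. The next, chr13:3358000-3361499, held 5 windows with a mean of 1.70%, 75624 bp from the predicted gene Gm40653. A run of 3 windows at chr13:48545500-48546999, 7228 bp from the microRNA gene Mirlet7a-1, had a mean of 0.0975% over 112 cytosines. No window of these runs had a mean above 6.12%.

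Levels rose over the first 3 kb around the hypomethylated windows and were lower again at 4 to 5 kb. Flanking windows 0.5 kb before the hypomethylated windows averaged 13.5% ± 0.458 (87 windows with a common cytosine) and those 0.5 kb after them 9.93% ± 0.420 (94 windows). At 3 kb the means were 53.6% ± 1.39 (21 windows) before and 62.2% ± 1.14 (19 windows) after. At 4 to 5 kb they were between 32.1% and 46.3%, from 10 to 25 windows each, below the 77.9% of CpG-poor windows far from genes. Windows next to hypermethylated windows showed no such step, with 89.7% ± 2.05 (15 windows) and 87.4% ± 1.81 (17 windows) at 0.5 kb on each side.

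**Figure D4:**
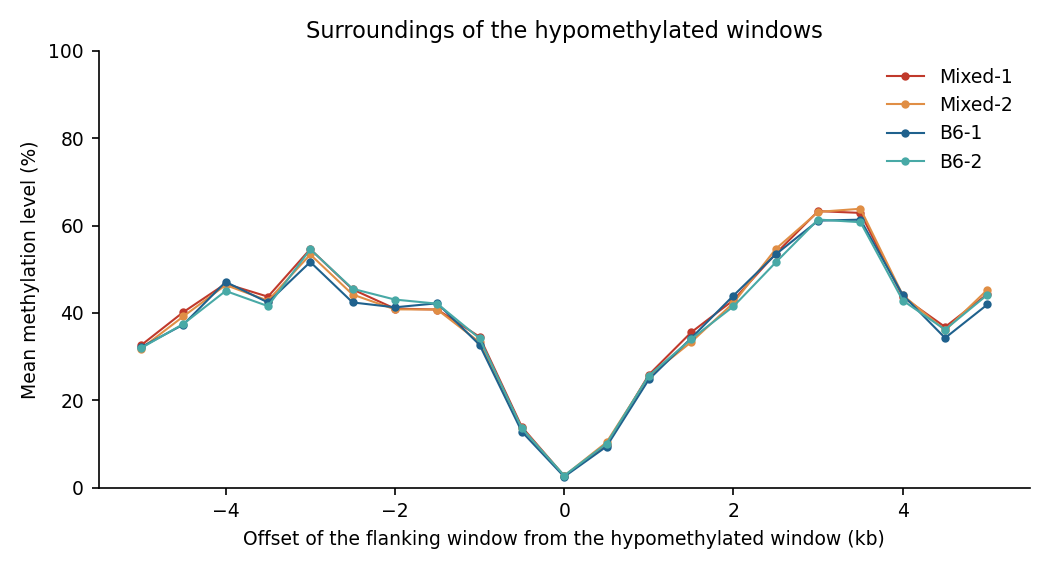
Mean methylation level of measured windows at offsets of up to 5 kb on each side of the 268 hypomethylated windows (offset 0), with a line for each mouse. All 4 lines rise from 2.71% at the centre to over 50% at 3 kb on both sides, and the number of flanking windows is small, between 10 and 94.

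Repeat content differed widely between the classes. Soft-masked bases, the reference's mark of repeats, made up a median of 4.8% of a hypomethylated window, 11.5% of an intermediate window and 69.2% of a hypermethylated window. The 61 windows with 50% or more soft-masked bases averaged 83.1% ± 1.07, and 45 of them were hypermethylated, 15 intermediate and 1 hypomethylated. The other 341 windows averaged 17.1% ± 0.0631, with 267 hypomethylated, 43 intermediate and 31 hypermethylated. Only 0.670% of CpG-dense gene-body windows and 0.0727% of promoter windows were as rich in soft-masked bases, against 15.2% of the far windows. The reference used here names no repeat family. Near-identical copies elsewhere in the genome (400 or more bases at 95% identity or more) were found for 31 windows, of which 14 were hypomethylated, 8 intermediate and 9 hypermethylated. Reads from copies can be misplaced, so their levels are uncertain; without them the mean of the far windows was 25.8% ± 0.175.

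GC content was highest in the hypomethylated windows and lowest in the hypermethylated ones. The median GC content was 63.0% in hypomethylated, 57.3% in intermediate and 52.8% in hypermethylated windows, and the median ratio of observed to expected CpG was 0.740, 0.596 and 0.615. The letters GGGCGG, the core bound by the activator Sp1, occurred on either strand in 209 hypomethylated windows (78.0%), 24 intermediate windows (41.4%) and 15 hypermethylated windows (19.7%), and in 78.0% of all 19118 CpG-dense windows. The E-box letters CACGTG, bound by factors of the Myc and USF families, occurred in 9.20% of the far windows and 11.5% of all CpG-dense windows. The CRE letters TGACGTCA occurred in 5 far windows (1.24%), all hypomethylated, and in 2.01% of all CpG-dense windows. A match is a string of letters and not a bound site.

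Levels rose with distance from genes, together with repeat content. The 126 windows at 5 to 10 kb from a transcript averaged 18.6% ± 0.151, the 205 windows at over 10 and up to 50 kb averaged 24.1% ± 0.0605, and the 71 windows beyond 50 kb averaged 50.9% ± 0.893. Of the last group, 32 had 50% or more soft-masked bases and averaged 84.1% ± 1.70, while the other 39 averaged 23.6% ± 0.262. The window farthest from any transcript, chr3:12837000-12837499, lay 632940 bp from Gm2464, was 98% soft-masked and had levels of 86.0%, 84.6%, 85.0% and 84.3% (both Mixed mice, then both B6 mice). The next farthest, chr16:69296000-69296499, was 93.4% soft-masked, had 43 near-identical copies and a mean of 84.6%, and the third, chr14:92031500-92031999, was 50% soft-masked with a mean of 90.4%. All 3 were hypermethylated in every mouse.

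Many of the windows lay at GENCODE starts or at pseudogenes. RefSeq pseudogenes without a transcript record do not count as transcripts under the distance rule, and 50 windows overlapped one. A GENCODE start lay within 1 kb of 110 windows (27.4%), which averaged 18.4% ± 0.310, against 30.4% ± 0.262 for the other 292. Starts of long intergenic noncoding RNAs (lincRNAs) were near 28 windows, of which 27 were hypomethylated, with a median of 0.653%. Processed pseudogenes, which are retrotransposed copies of spliced mRNAs, started near 48 windows, of which 27 were hypomethylated, 11 intermediate and 10 hypermethylated, with a mean of 30.9% ± 0.497. Pseudogene starts were thus spread over all classes and lincRNA starts were not. GENCODE starts of protein-coding transcripts lay near 3 hypomethylated, 3 intermediate and 1 hypermethylated window. RefSeq regulatory features overlapped 5 windows, and all 5 were hypomethylated. They included an enhancer 9882 bp from Fosb, a subunit of the transcription factor AP-1, at 0.0644%, and an enhancer 34809 bp from Ttc34 at 14.4%.

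Windows whose nearest gene encodes a developmental regulator were hypomethylated in most cases, as were the other far windows. Such genes were nearest to 25 windows (6.22%), a share close to the 5.79% of all CpG-dense windows. Of these, 19 (76%) were hypomethylated, against 66.0% of the 377 windows with another nearest gene, a difference that was not tested. The means of the 19 ran from 0.225% to 4.80%. They included windows near the homeobox genes Meis1 (7349 bp, 0.470%) and Mnx1 (5324 bp, 0.514%), and near Neurog1 (6320 bp, 1.55%), which directs neuronal fate, and Tfap2a (9303 bp, 1.54%), a regulator of neural crest and epidermis. The homeobox gene Irx5 had 3 windows: those at 98544 and 99044 bp had means of 0.785% and 0.773%, while 1 at 75544 bp was hypermethylated, with 82.8%, 87.6%, 83.2% and 84.6% (Mixed mice, then B6 mice). The 5 intermediate windows lay near Gli2 (78.4%), the transcription factor of hedgehog signalling, Id1 (20.5%), Nkx1-1 (74.3%) and Pax5 (67.2% and 23.4%), the regulator of B cell identity. The windows nearest to Irx5 thus lay in opposite classes.

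Imprinted genes were nearest to 5 windows (1.24%), against 0.445% of all CpG-dense windows. All but the window near Dlk1 lay between 143437500 and 143445999 of chromosome 7, so this share rests on few loci. A pair of them lay 10450 and 10950 bp from Kcnq1, the potassium channel gene of the imprinted cluster on distal chromosome 7. At chr7:143437500-143437999 the levels were 24.98% and 23.2% in Mixed-1 and Mixed-2 and 23.02% and 21.3% in B6-1 and B6-2, and in the adjoining window it was 8.48%, 5.60%, 7.31% and 6.86%. Another pair lay 12340 and 12840 bp from Cdkn1c, which encodes a maternally expressed inhibitor of cyclin-dependent kinases, with means of 4.49% and 18.5%. The window 14486 bp from Dlk1, a paternally expressed gene of the Notch ligand family, had a mean of 2.04%. The highest mean of the 5 was 23.1%.

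In most of the intermediate windows, intermediate cytosines made up the larger part. Their means lay between 20% and 40% in 15 windows, 40% and 60% in 9, and 60% and 80% in 34. In 40 of the 58 windows, 50% or more of the common cytosines were themselves intermediate, and in 0 windows did hypo- and hypermethylated cytosines both reach 25%. The intermediate window with the most cytosines, chr8:3994000-3994499 (50 cytosines), overlapped the processed pseudogene Gm7389 and had levels of 22.7%, 21.2%, 25.2% and 19.7%, in the same order of mice. The window around the intermediate sequence above, with 47 cytosines over the processed pseudogene Gm48636, had 48.2%, 57.9%, 45.5% and 49.9%. The window 11752 bp from Id1, which encodes an inhibitor of basic helix-loop-helix transcription factors, had 23.2%, 18.01%, 21.2% and 19.6%, so 2 of 4 mice lay below the class limit of 20%. In that window 34.2% of the cytosines were intermediate and 65.8% were hypomethylated.

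The hypermethylated windows with the most cytosines were of different kinds. The window around the hypermethylated sequence above lay 20179 bp from Ing2, which encodes a reader of histone H3 methylation. It was the one with the most cytosines (36) and had a mean of 87.5% ± 0.499. It had no soft-masked bases, but the letters gtgtacgga recur along the printed sequence, so soft-masking can miss repeats. The next, chr12:18345500-18345999, with 28 cytosines, 41492 bp from Zfp996, was 96.6% soft-masked with 1 copy, and its levels were 82.6%, 70.4%, 84.3% and 84.0%, with only Mixed-2 below 80%. The third, chr3:8327000-8327499, overlapped the processed pseudogene Gm5841, and all of its 27 cytosines were above 80%, with a mean of 92.9% ± 1.83. Among the 31 hypermethylated windows with less than 50% soft-masked bases, 8 had a GENCODE pseudogene start within 1 kb.

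The spread between mice was small in the hypo- and hypermethylated windows and larger in between. The SD between the 4 mice had a median of 0.646 points over all 402 windows, with 0.343 in hypomethylated, 3.56 in intermediate and 1.33 in hypermethylated windows. An SD over 5 points was found in 22 windows, of which 18 were intermediate. Summed over its cytosines, a window held a median of 966 to 1490.5 reads per mouse, where a read counts once at each cytosine it covers. On levels taken from these pooled reads, the SD in intermediate windows had a median of 4.38 points. Counting error, with every such count taken as independent, gave 1.51, and 42 of 58 windows exceeded it by more than 2 times. Among hypomethylated windows, 61 of 268 did (22.8%), and among hypermethylated windows, 17 of 76 (22.4%). Counts of 1 read at several cytosines are not independent, and PCR reads without molecular identifiers are not independent molecules. The counting error is therefore a lower limit, and the excess over the true sampling error was not tested.

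**Figure D5:**
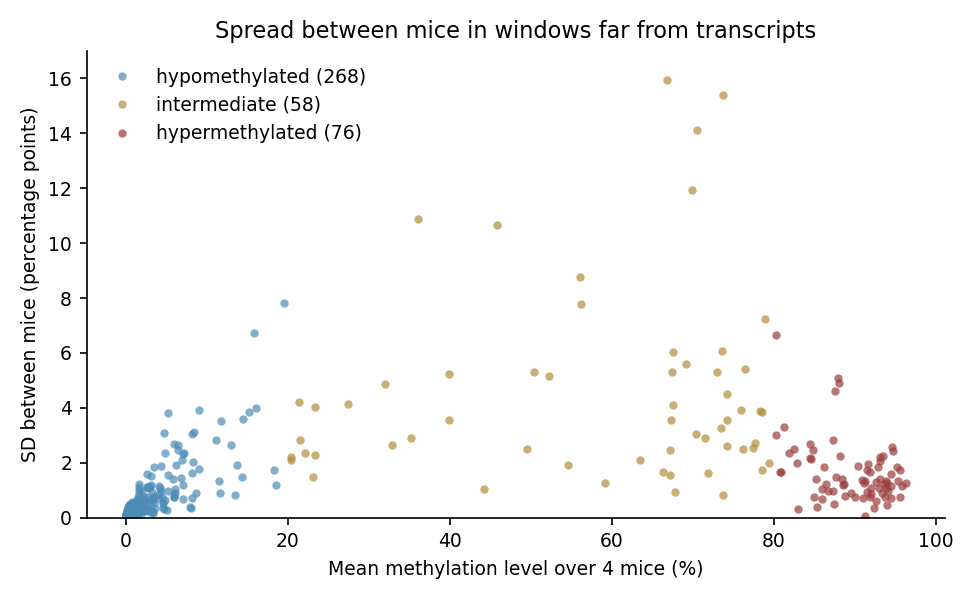
SD between the 4 mice against the mean level of each of the 402 windows, in percentage points and percent, with colours for the 3 classes. The SD stays low at both ends of the scale, and the highest value, 15.9 points, belongs to an intermediate window.

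In most of the windows that varied most, 1 mouse stood apart from the others. At chr14:92943500-92943999, 69701 bp from the protocadherin gene Pcdh9 and 91.6% soft-masked, Mixed-1 and Mixed-2 had 71.7% and 43.3%, and B6-1 and B6-2 had 78.4% and 74.1%. At chr12:15377500-15377999, 228334 bp from Gm40287 and 86.6% soft-masked, it was 72.5%, 52.5%, 86.4% and 83.7% in the same order. At chr1:136789000-136789499, 53063 bp from the nuclear receptor gene Nr5a2 and over the processed pseudogene Gm8762, it was 76.1%, 52.4%, 78.7% and 72.4%. Mixed-2 was the lowest mouse in each of these windows. At chr12:20234000-20234499, 6240 bp from Gm32719, Mixed-1 was highest, with 91.5% against 65.9%, 61.4% and 63.1%, and this window was covered unevenly, at 242 reads per cytosine in Mixed-1 and 349.6 to 369 in the others. At chr3:58987000-58987499, over the ribosomal protein pseudogene Rpl13-ps6, B6-1 was highest, with 51.8% against 34.8%, 27.8% and 29.997%. Over the 22 windows with an SD above 5 points, the mouse farthest from the median of the others was Mixed-2 in 8, Mixed-1 in 7, B6-1 in 6 and B6-2 in 1.

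No far window was called different between the strains. The mean level of the far windows was 26.9% ± 0.152 (SD, n = 2) in Mixed and 27.3% ± 0.0723 in B6, a difference (Mixed minus B6) of -0.32 points (two-sided exact permutation test, p = 0.333, the smallest it can give with 2 mice against 2). In intermediate windows the difference was -1.94 points and in hypermethylated windows -0.46 points (exact permutation p = 0.333 for each), and in hypomethylated windows it was 0.07 points (exact permutation p = 1). A logistic model of each window's reads, with overdispersion moderated by limma and Benjamini-Hochberg adjustment over 176086 windows, called 0 of 402 far windows at an adjusted p under 0.05 and a difference of at least 10 points. It called 25 of all windows (0.0142%) and 1 CpG-dense window (0.00523%). At an unadjusted p under 0.05 there were 47 far windows, 19 higher and 28 lower in Mixed, or 11.7%, against 4.52% of all windows and 5.38% of CpG-dense windows. limma on the logit of the window levels called 0 far windows and 0 of all windows. It had 14 far windows at an unadjusted p under 0.05, and the share over all windows was not computed. Single Mixed mice weighed on the strain differences of single windows. Without Mixed-1, the difference near Gm40287 went from -22.6 to -32.5 points. Without Mixed-2, the difference at chr12:20234000-20234499 went from 16.4 to 29.2 points.

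The far windows closest to a call differed in the size of the strain difference. The lowest adjusted p (0.116, moderated logistic model) belonged to chr15:103182000-103182499, 9047 bp from Cbx5, which encodes heterochromatin protein 1 alpha, where the levels were 4.11%, 4.66%, 5.60% and 5.17%, and the strains differed by -1.003 points. Only 5 windows had strain means 10 or more points apart, and 22 had 5 or more. In 4 of the 5, which include the windows near Pcdh9, Gm40287 and Nr5a2 above, the level was lower in Mixed. The fourth of these, chr6:90232500-90232999, 8062 bp from the vomeronasal receptor gene Vmn1r53, had 31.9% and 43.2% in the Mixed mice and 55.4% and 52.8% in the B6 mice (adjusted p = 0.226, moderated logistic model). The strains overlapped in the window near Nr5a2. They did not in those near Vmn1r53, Pcdh9 and Gm40287, but these windows were picked by the distance between strain means. The share of all windows without overlap was not computed. The median absolute difference over the far windows was 0.643 points between the Mixed mice and 0.597 between the B6 mice. Both lay within the range of 0.550 to 0.717 points between mice of different strains.

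Coverage was even across most of the windows and extreme in a few. The median over windows of mean coverage per cytosine was 55.5 reads, with 59.5 in hypomethylated, 49.8 in intermediate and 44.0 in hypermethylated windows, and across windows coverage and level had a Spearman rho of -0.40. The window with the highest coverage, chr2:98666500-98666999, 35600 bp from Gm33780 and 95.6% soft-masked, had a mean coverage of 5931 reads, between 1464 and 11410 in single mice, and a level of 84.9% ± 2.45. It overlapped the GENCODE protein-coding transcript of Gm10800 and had 2 near-identical copies. The next, chr3:5860500-5860999, at 1468 reads, had levels of 9.27%, 14.5%, 6.40% and 5.98%. The third, chr17:36231000-36231499, 24174 bp from Rpp21, a subunit gene of ribonuclease P, had 482 reads and levels of 7.20%, 9.20%, 4.28% and 3.38%. Neither of these last windows was called between strains (adjusted p = 0.827 and 0.248, moderated logistic model). The part of collapsed repeats in these coverages was not tested.

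The windows were spread over all autosomes, with 37 on chromosome 2 and 31 on chromosome 12 as the highest numbers. Relative to all CpG-dense windows of a chromosome, they were most frequent on chromosome 13 (4%) and chromosome 12 (3.71%) and least frequent on chromosome 16 (1.22%). On chromosome 12, 18 windows lay between 15377500 and 23189999, a segment picked after the values were seen. Of these, 12 had near-identical copies, 7 were intermediate, 10 hypomethylated and 1 hypermethylated, and their mean was 26.6% ± 1.503. The 402 windows were a small part of what the reference holds: of 172310 autosomal windows more than 5 kb from transcripts with 8 or more CpG sites, 12.3% had a common cytosine and 0.233% had 16 or more. Every far window held CCGG, the site of MspI, as did all CpG-dense windows.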

How the data were processed

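Livers of 4 male mice were profiled by ERRBS. According to the methods, reads were mapped to mm10 with BSMAP, whereas the submitters' processing notes name Bismark and SAMtools. For each CpG cytosine and strand, the authors deposited the coverage as a count of reads, at least 10 and not normalized, and the percent of reads that were C or T. Methylated reads were computed as percent times coverage.

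The 1276684 cytosines found in all 4 mice were grouped into 500-bp windows by position. The level of a window was the unweighted mean of the percent over its cytosines. Distances to transcripts used RefSeq on GRCm38 (mm10), and windows overlapping 1000 bp on each side of a TSS were promoters. Strain calls used a quasi-binomial logistic model on methylated and unmethylated reads, with overdispersion moderated by limma 3.58.1 (R 4.3.3) towards a value estimated on windows with 5 or more expected reads of each kind in every mouse. Fits with 1 residual degree of freedom took that value from the fit of all 4 mice, a change made after simulated data gave false calls without it. On simulated data with 100000 windows, of which 200 were changed by 30 points, the model recovered 200 and made 2 false calls, and the fit with mice of equal number as a block recovered 200 and made 1. Copies were found with minimap2 2.31-r1302. Other computations used Python 3.11.15, numpy 2.4.6, pandas 2.3.3 and scipy 1.17.1, and plots were drawn with matplotlib 3.10.9.

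Named windows were, by rule, the 3 with the most cytosines in each class, the 5 with the largest SD, the 3 with the highest coverage, the 3 longest runs (ties by chromosome and start), the 3 farthest from a transcript and those nearest to imprinted genes. Windows near developmental regulators, pseudogenes and lincRNAs, the Fosb, Ttc34, Cbx5 and Vmn1r53 windows, and comparisons with GENCODE were added after values were seen. The members, gene lists and tests were chosen with earlier results of these data known. Coverage summed over CpG cytosines ranged from 60654199 to 99215153 per mouse, with a median coverage of 39 to 55 per cytosine. Replicate numbers in the labels were the only possible pairing. Non-CpG cytosines, sex chromosomes and RNA sequencing were not used here, apart from sex chromosome windows in the adjustment of p-values. Alternatives covered the annotation, distance, cytosine number, coverage limits, window position, pooling of reads, repeats, class bounds, tests and leaving out each mouse.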

Additional observations from a re-analysis of the deposited data

How the results depend on the processing

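The mean contrasts kept their sign under every alternative tried, but at 10 kb the mice were split in the direction of the contrast with gene bodies (-0.0921 points, exact sign test p = 1). Of 103 recomputed values, 76 were kept. A contrast or strain difference of means was kept by its sign alone, whatever its p. A share or SD was kept if it moved by less than 1 SD, and a count if it stayed within 1.5 times. With curated transcripts only, 814 windows were far from genes, of which 10.8% were hypermethylated and 77.9% hypomethylated. At 10 kb these shares were 21.8% and 61.5%, with 24 or more cytosines (168 windows) 3.72% and 89.7%, with a coverage of at least 20 14.3% and 74.8%, and without windows of 50% or more soft-masked bases 9.53% and 78.4%. Class bounds of 10% and 90% gave 10.4% and 62.7%, with 26.8% intermediate, and windows shifted by 250 bp gave 68.2% hypomethylated. Among alternatives added after the data were seen, windows without copies gave 18.5% and 68.4%, and the 238 windows also more than 5 kb from GENCODE transcripts gave 23.6% and 61.4%. Fewer windows entered most of these settings, and the cause was not tested further. Sizes varied well beyond the spread of the mice, as the contrasts ranged from 7.58 to 29.3 points against promoters and from -13.6 to -0.0921 points against gene bodies, and Mixed minus B6 ranged from -0.54 to -0.07 points. The median SD between mice was 0.505 points at a coverage of at least 20. Leaving out each mouse gave 0.527 to 0.615 for the median SD, 19.1% to 19.5% hypermethylated, 66.6% to 66.9% hypomethylated, 13.8% to 14.2% intermediate, -0.43 to -0.22 points for Mixed minus B6, 25.3 to 25.5 points against promoters, -4.05 to -3.83 against gene bodies and -51.0 to -50.4 against CpG-poor windows. Calls between strains numbered 0 to 3 when each mouse was left out: 3 without Mixed-1 (the windows near Pcdh9, Gm40287 and Zfp996), 3 without Mixed-2 (including that near Gm32719) and 0 without either B6 mouse, where the strain left with 1 mouse was assumed to vary like the other. Without Mixed-1 or Mixed-2, more windows were also called among all windows than with all mice, so the rise was not limited to far windows. With 1 mouse left in a strain, strain cannot be told apart from that mouse, and these calls decide nothing about strain. Fisher's exact test on pooled reads, which ignores differences between mice, called 5 windows, and 3117 of all windows.

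In the fit with a replicate block, in which mice of equal number are paired, the strain difference of the means was -0.32 points. This fit called 1 far window, that near Gm40287 (adjusted p = 0.0402, moderated logistic model), and 37 of all windows. It had 56 far windows at an unadjusted p under 0.05, and the share over all windows was not computed. The numbers showed no sign of pairing the mice, since the deviations of mice with the same number had a correlation of 0.0577 over the far windows and -0.0327 over all CpG-dense windows.

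The smallest p of the exact permutation test over mice was 0.333 and of the exact sign test 0.125. Strain, housing and depth cannot be told apart. ERRBS reads only restriction fragments and does not separate 5-methylcytosine from 5-hydroxymethylcytosine.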
